A study of Homo sapiens with 27 samples.

Results

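The genes of the initiation and elongation factors of translation were examined in T47D cells, a luminal breast cancer cell line, with and without an introduced truncation mutant of the transcription factor GATA3. They were taken by name from the gene count table, as every entry that starts with EIF and a digit or with EEF1 or EEF2, leaving out the EIF2AK kinases. This gave 67 of the 26485 listed genes, of which 56 passed the filter on low counts and were tested. The control T47D cells carried the empty vector. The other lines stably expressed GATA3 with a splice site deletion (Splice del), with a frameshift at C321 (C321fs) or with a frameshift at A333 (A333fs), each as a Ty1-tagged protein from a lentiviral vector. The mutant lines were selected pools with 1 pool for each mutant, and they still had their own wild-type GATA3. RNA-seq was done on 3 libraries of each of the 4 lines. The study calls the libraries of a line biological replicates, and the sources used here do not say how these were grown apart, so the p-values measure the spread between libraries of 1 pool of cells.

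Translation begins when EIF2 brings the initiator tRNA to the small ribosomal subunit, EIF3 and the EIF1 factors hold that subunit ready, and the EIF4 factors recruit it to the capped end of the mRNA. EIF5 and EIF5B complete the joining of the large subunit. During elongation EEF1A delivers each aminoacyl tRNA, the EEF1B, EEF1D and EEF1G subunits recharge it with GTP, and EEF2 moves the ribosome along. Many mRNAs of these factors begin with a C and an uninterrupted run of pyrimidines, through which their translation is tied to mTOR activity.

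The start sites are shown because the pyrimidine run is a known feature of many of these mRNAs. A RefSeq promoter (GRCh38.p14) was found for 51 of the 67 genes. The motif searched was a C at the annotated start site within a run of at least 5 letters that are all C or T, on the transcribed strand only. It was present at 11 of the 45 tested genes with a promoter entry (24.4%), against 4.04% of all 27305 promoters. The latter were not limited to genes that passed the filter on low counts. For several genes with the run, among them EIF4A2, EIF4B and EIF3F, the RefSeq start site differs from the gene start in the count table. Each sequence below spans the 10 bases before and the 20 bases from the start site, and the capitals mark the pyrimidine run. EEF1A1 (chr6:73521013-73521042, minus strand), EEF2 (chr19:3985444-3985473, minus strand), EIF4A2 (chr3:186783567-186783596, plus strand), EIF4B (chr12:53006446-53006475, plus strand) and EIF3F (chr11:7987327-7987356, plus strand) had the run. EEF1G (chr11:62573872-62573901, minus strand) did not have it at the RefSeq start site.
EEF1A1: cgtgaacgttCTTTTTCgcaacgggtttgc
EEF2: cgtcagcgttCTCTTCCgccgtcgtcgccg
EIF4A2: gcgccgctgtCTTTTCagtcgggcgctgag
EIF4B: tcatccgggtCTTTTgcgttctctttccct
EIF3F: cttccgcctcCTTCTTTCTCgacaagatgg
EEF1G: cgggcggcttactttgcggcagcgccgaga

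The libraries held 27872208 to 36788024 counted fragments. Levels are CPM, the counts of a gene scaled to a common library size after correction by the trimmed mean of M-values (TMM), and the scaling factors were 0.884 to 0.943 in the control libraries and 1.01 to 1.05 in the mutant libraries. All 9 luminal markers were at 195 CPM or above in every library, and their summed level was 18221 to 21444 CPM in control libraries, 12056 to 12951 with Splice del, 12797 to 13439 with C321fs and 13882 to 15002 with A333fs. Of 8 markers of other cell types the basal genes KRT5, KRT14, KRT17 and TP63 and the endothelial and leukocyte genes PECAM1 and PTPRC were at 0.798 CPM or below. ACTA2, of myoepithelial cells, was at 11.8 to 21.0 CPM and highest in A333fs libraries, and COL1A1, of fibroblasts, at up to 59.8 CPM and lowest there. The part of these markers in the results was not tested. GATA3 itself was at 1281 ± 50.8 CPM (SD, n = 3) in control cells, 1001 ± 45.05 with Splice del, 1142 ± 12.5 with C321fs and 1016 ± 11.03 with A333fs. Its TMM-scaled level was lower in every mutant library than in every control library, although a mutant had been added. Without the scaling factors this order did not hold for every library. Gene counts do not separate the introduced from the endogenous transcript. In these bulk samples fewer cells of a kind and less RNA per cell cannot be told apart.

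Most of the tested factors that moved were lower in the mutant lines. In Splice del cells 3 of the 56 tested genes rose and 28 fell against control, where 18.7% of all 14789 tested genes rose and 22.4% fell. In C321fs cells 8 rose and 23 fell, against 16.1% and 20.7% of all tested genes. In A333fs cells 13 rose and 26 fell, against 21.0% and 26.4%. A gene rose or fell here when its adjusted p was below 0.01 in the quasi-likelihood test of edgeR, adjusted over all tested genes by the Benjamini-Hochberg method. The shares that fell were thus above the background in each line, while the share that rose was below it in Splice del cells and near it in the others. The median log2 fold change of the 56 genes was -0.20 for Splice del and -0.12 for both C321fs and A333fs, beside 0.032, 0.021 and 0.0086 over all tested genes. The 3 comparisons share the control libraries.

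The changes were mostly small. A fold change over 1.5 was passed by 8 genes that fell in Splice del cells (background 4.53%) and by 1 gene, EIF4E1B, that rose in C321fs cells (4.63%). In A333fs cells it was passed by 6 genes that fell (6.81%) and by EIF4A2, which rose (5.46%). In the quasi-likelihood test of edgeR 0 genes rose that far with Splice del (6.21%) and 0 fell that far with C321fs (2.26%), and the counts were also 0 at an unadjusted p below 0.05 and with DESeq2. Among the 56 tested genes 21 fell in all 3 mutant lines (background 14.7%), 3 rose in all 3 (EIF4A2, EIF5 and EIF5A2, background 8.93%) and 13 passed in none of them (39.0%). A difference anywhere among the 4 lines was called for 41 of the 56 genes (73.2%), against 56.2% of all tested genes.

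**Figure D1:**
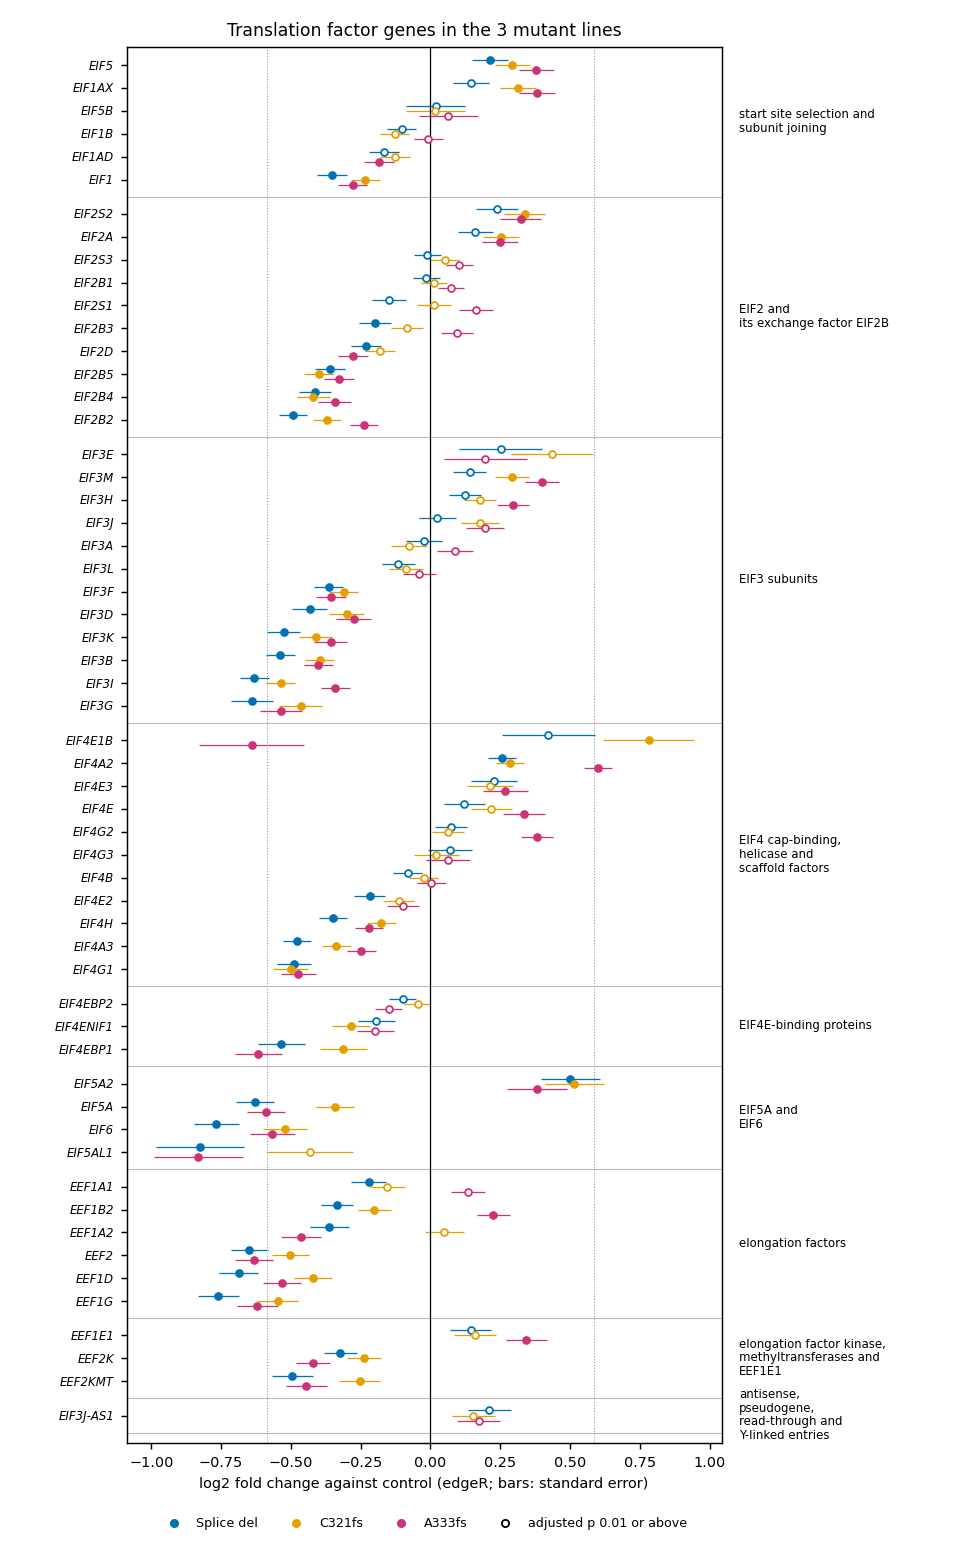
Log2 fold change against control (x axis) of the 56 tested genes, grouped by role (rows), in Splice del (blue), C321fs (orange) and A333fs cells (pink), with bars for the standard error. Filled points have an adjusted p below 0.01, dotted lines mark a fold change of 1.5, and 21 genes have 3 filled points left of 0.

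The balance of higher and lower calls depended on the scaling. With library totals alone the calls up and down were 16 and 21 for Splice del, 19 and 13 with C321fs, and 21 and 18 with A333fs, while the median of all genes moved from 0.032, 0.021 and 0.0086 to 0.22, 0.19 and 0.16. With upper-quartile scaling 10 rose and 24 fell, 13 and 16, and 20 and 18, and the median of all genes was 0.12, 0.11 and 0.12. The share of all tested genes called with these scalings was not counted. The direction of a change of the members is thus not separated here from a shift of all genes. With totals EIF2S3 and EIF2B1 in Splice del cells went from -0.011 and -0.014 to 0.17 and 0.17 and passed as higher.

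The change also moved with the base composition of the exons. Over the 56 genes the log2 fold change against control had a Spearman correlation with exon GC content of -0.76 with Splice del, -0.74 with C321fs and -0.86 with A333fs, and over all 14789 genes it was -0.51, -0.55 and -0.67. These are correlations across genes, which are not independent replicates, and they share the control libraries. The genes that fell had a median exon GC content of 53.9% in Splice del and 54.7% in each of the other lines, and the genes that rose 40.5%, 40.0% and 40.5%. The slope of log2 CPM over GC content, per 10 percentage points, was 0.17 ± 0.039 (SD, n = 3) in the control libraries and -0.031 ± 0.044, -0.026 ± 0.069 and -0.11 ± 0.041 in Splice del, C321fs and A333fs libraries. Library composition and mutant cannot be told apart here, since all control libraries lay on one side.

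With a GC and length trend removed from each library, more of the genes passed as lower and most calls of a rise were gone. Over the 56 genes a correlation with exon GC content remained, at -0.41 with Splice del, -0.31 with C321fs and -0.44 with A333fs. The removal was thus not complete for these genes. In that fit 1 rose and 42 fell in Splice del cells (background 12.1% and 27.9%), 2 rose and 34 fell in C321fs cells (9.16% and 22.6%), and 2 rose and 30 fell in A333fs cells (10.3% and 21.2%). The calls of a fall that were lost in that fit were those of EEF1A2 in Splice del, EEF2KMT and EIF4EBP1 in C321fs, and EIF2B4, EIF4E1B, EEF1D and EEF1A2 in A333fs cells. In A333fs cells the genes that still rose were EIF4A2, at 0.25 on the log2 scale, and EIF4G2, at 0.15. The median log2 fold change of all tested genes in that fit was -0.053 with Splice del, -0.047 with C321fs and -0.047 with A333fs. A value just below 0 there is thus not below the median gene.

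**Figure D2:**
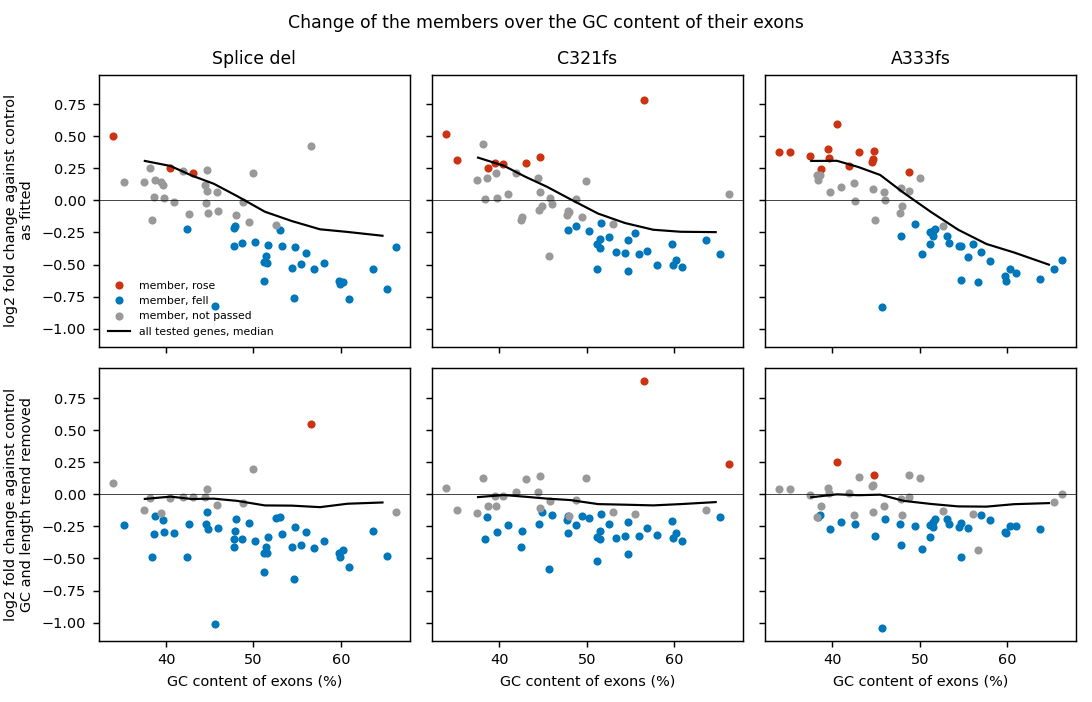
Log2 fold change against control (y axis) over the GC content of exons in percent (x axis) for the 56 tested genes in the 3 mutant lines, as fitted (top) and after removal of the GC and length trend (bottom). Red points rose, blue points fell and grey points did not pass; the black line is the median of all tested genes in 10 GC classes, and most members lie below it.

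The elongation factors were among the most abundant entries. Per kilobase of exon the highest levels in control cells were those of EEF1G at 2822 ± 190.2 CPM per kilobase (SD, n = 3), EEF1A1 at 1703 ± 43.7 and EEF2 at 1474 ± 119, followed by EIF5A at 536 ± 31.8. Together EEF1A1, EEF1G and EEF2 held 50.7% ± 0.319 of the counts of the whole gene group in control cells, 46.5% ± 0.554 with Splice del, 46.9% ± 0.952 with C321fs and 48.0% ± 1.01 with A333fs. The summed share of the group was 2.71% ± 0.0189 of all counts in control cells, 2.39% ± 0.0214 with Splice del, 2.55% ± 0.0664 with C321fs and 2.62% ± 0.0415 with A333fs. As a percentage of the control mean this was 88.3 ± 0.790, 94.2 ± 2.45 and 96.9 ± 1.53. Summed per kilobase, which uses TMM-scaled levels, it was 75.4, 82.7 and 84.5% of control. The share is of raw library totals, so the percentages are on different scales.

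EEF2, the translocase of elongation (chr19:3976056-3985463, minus strand), fell in all 3 mutant lines. It was at 4405, 5089 and 4473 CPM with the empty vector, 2862, 2899.5 and 3151 with Splice del, 3446, 3303 and 3118 with C321fs and 2986, 2896 and 3134 with A333fs. Every mutant library was below every control library. The log2 fold changes were -0.65 (SE 0.067), -0.50 (SE 0.067) and -0.63 (SE 0.067), with adjusted p of 1.9e-06, 3.3e-05 and 1.9e-06 in edgeR's quasi-likelihood test. With the GC trend removed they were -0.49, -0.34 and -0.30.

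EEF1G, the structural subunit of the exchange complex (chr11:62559601-62573988, minus strand), followed the same course. Its CPM were 4119, 4672 and 4229.9 in control cells, while the libraries of Splice del had 2500.4, 2544 and 2647, those of C321fs 3281, 3006 and 2624 and those of A333fs 2898, 2749 and 2823, again without overlap between control and mutants. Its log2 fold changes were -0.76 (SE 0.074), -0.55 (SE 0.074) and -0.62 (SE 0.074). EEF1D, another exchange subunit, fell from 815 ± 56.3 CPM (SD, n = 3) to 506 ± 8.80, 608 ± 62.8 and 563 ± 14.6. Its call in A333fs cells was not kept with the GC trend removed, where its log2 fold change was -0.060 (adjusted p = 0.33 in edgeR's quasi-likelihood test).

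EEF1A1 and EEF1B2 set A333fs cells apart from the other mutants. EEF1A1, the main carrier of aminoacyl tRNA (chr6:73515750-73521032, minus strand), was at 6156, 5877 and 5906 CPM in the control libraries, 4984, 5185 and 5223 in those of Splice del, 5038, 5799 and 5288 in those of C321fs and 6805, 6235 and 6664 in those of A333fs cells. The A333fs libraries were the highest and lay above every library of the other lines. Against control it fell in Splice del cells by 0.22 on the log2 scale (SE 0.062, adjusted p = 0.0068 in edgeR's quasi-likelihood test) and did not pass in the other lines, at -0.15 (adjusted p = 0.048) and 0.14 (adjusted p = 0.07). After removal of the GC trend it was at -0.48, -0.41 and -0.16, and the first 2 passed as lower. Reads of EEF1A1 can be split with its processed pseudogenes, so its level is uncertain.

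EEF1B2, the exchange subunit that works on EEF1A (chr2:206159594-206162929, plus strand), went in opposite directions. It was at 223, 198 and 194 CPM with the empty vector, 159, 165 and 164 with Splice del, 178, 187 and 169.7 with C321fs and 248, 237 and 234 with A333fs. The Splice del and C321fs libraries lay below all control libraries and the A333fs libraries above them. It fell in Splice del (-0.33, SE 0.059) and C321fs cells (-0.20, SE 0.059) and rose in A333fs cells (0.23, SE 0.059). Its values without the GC trend were -0.35, -0.24 and 0.15, and the rise in A333fs cells did not pass (adjusted p = 0.018 in edgeR's quasi-likelihood test). EEF1A2, the tissue-restricted paralog of EEF1A1 (chr20:63488012-63499315, minus strand), was at 174, 216 and 186 CPM in control cells, while the libraries of Splice del had 145, 144 and 159, those of C321fs 203, 205 and 188 and those of A333fs 138, 137 and 142. It fell in Splice del (-0.36, SE 0.071) and A333fs cells (-0.46, SE 0.071), and C321fs libraries overlapped control (0.050, adjusted p = 0.58 in edgeR's quasi-likelihood test). Its exons have the highest GC content of the tested members, 66.3%, and with the GC trend removed its log2 fold change was -0.14 with Splice del, 0.24 with C321fs and 0.0033 with A333fs.

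**Figure D3:**
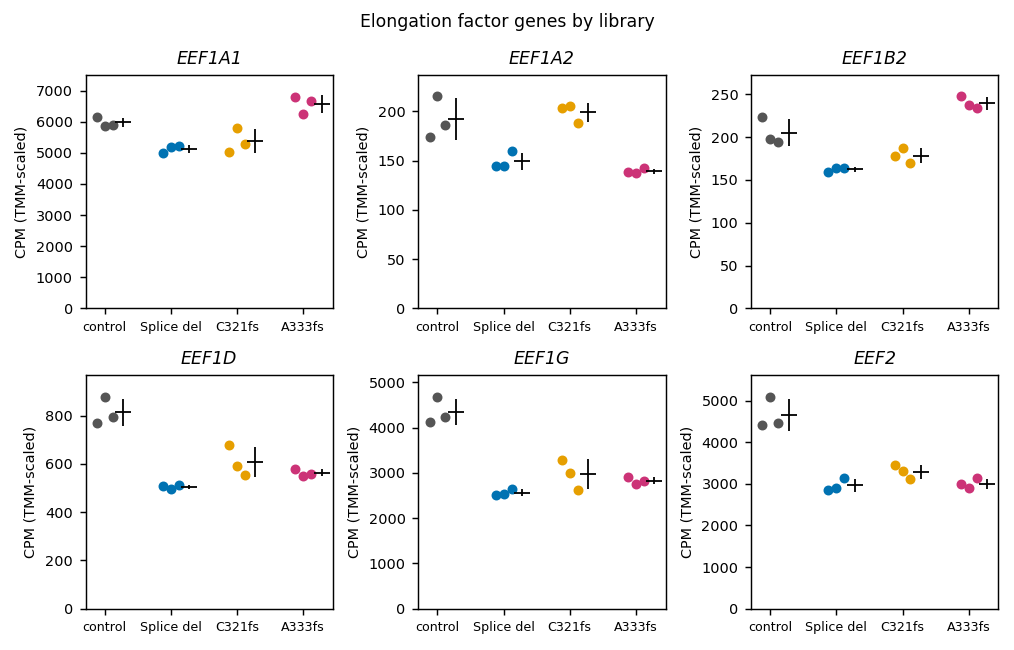
TMM-scaled CPM (y axis, from 0) of the 6 elongation factor genes in each library of the 4 lines (x axis), with the mean and SD of 3 libraries beside the points. EEF2, EEF1G and EEF1D are lower in every mutant library than in every control library, and EEF1A1 and EEF1B2 are highest in A333fs cells.

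EEF2K, the kinase that switches EEF2 off, fell in all 3 lines. It was at 40.1 ± 1.36 CPM (SD, n = 3) with the empty vector, 32.1 ± 1.63 with Splice del, 34.1 ± 1.91 with C321fs and 30.0 ± 0.149 with A333fs, and its log2 fold changes were -0.32, -0.24 and -0.42. EEF2KMT, a methyltransferase of EEF2, fell to log2 fold changes of -0.49, -0.25 and -0.44. Its call in C321fs cells was lost with the GC trend removed (-0.16). It shares 983 of 2406 exon bases with ALG1 on the opposite strand. Counting was without strand and left out fragments that overlap both genes, so EEF2KMT lost counts. EEF1E1, a scaffold protein of the tRNA synthetase complex, rose in A333fs cells (0.34, adjusted p = 0.00089 in edgeR's quasi-likelihood test) and was at 0.14 and 0.16 in the others, and neither difference from A333fs cells passed when tested directly. With the GC trend removed it was at -0.0073 in A333fs cells.

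EIF5A and EIF6 fell in all 3 lines. EIF5A, the hypusinated factor that helps ribosomes through difficult stretches (chr17:7306999-7312463, plus strand), was at 936, 1041 and 945 CPM in the control libraries, 617, 623 and 652 in those of Splice del, 856, 747 and 703 in those of C321fs and 663, 625 and 656 in those of A333fs cells. All mutant libraries lay below control, with log2 fold changes of -0.63 (SE 0.068), -0.34 (SE 0.068) and -0.59 (SE 0.068). EIF6, which keeps the large subunit from joining too early (chr20:35278906-35284816, minus strand), was at 328, 389 and 344 CPM with the empty vector, 207, 208 and 209 with Splice del, 284, 235 and 220.1 with C321fs and 239.6, 235 and 242 with A333fs. It fell by 0.77 (SE 0.080), 0.52 (SE 0.080) and 0.57 (SE 0.080) on the log2 scale. The near-copy EIF5AL1, at no more than 5.29 CPM, fell in Splice del (-0.82) and A333fs cells (-0.83), but its reads can be split with those of EIF5A.

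EIF5A2, the second EIF5A gene, moved the other way at a low level. It was at 5.67, 5.93 and 6.46 CPM in control cells, while the libraries of Splice del had 9.06, 8.07 and 8.39, those of C321fs 7.34, 9.12 and 9.40 and those of A333fs 7.65, 8.39 and 7.48. No mutant library reached down to the control range, and it rose by 0.50, 0.52 and 0.38 on the log2 scale. Its exons have the lowest GC content of the tested members, 33.9%, and with the GC trend removed the values were 0.093, 0.050 and 0.044, none of which passed.

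Among the EIF4 factors, which bind and unwind the capped end, 11 of 12 genes were tested. EIF4A2, a helicase (chr3:186783572-186789896, plus strand), rose in all 3 lines and most in A333fs cells. It was at 447, 469 and 474 CPM in the control libraries, 563, 564 and 532 in those of Splice del, 554, 583 and 555 in those of C321fs and 706, 721 and 679 in those of A333fs cells. The Splice del and C321fs libraries overlapped each other and lay between control and A333fs. The log2 fold changes were 0.26 (SE 0.050), 0.28 (SE 0.050) and 0.60 (SE 0.050), with adjusted p of 0.0005, 0.00029 and 1.8e-07 in edgeR's quasi-likelihood test. With the GC trend removed the first 2 were -0.027 and -0.0092, while A333fs kept 0.25 (adjusted p = 1.7e-05). The first 2 were just below 0 but above the median of all tested genes in that fit, -0.053 and -0.047. Its paralog EIF4A1 had 0 counts in every library, since all 1877 of its exon bases are shared with the read-through gene SENP3-EIF4A1 and such fragments were not assigned, so its level was not measured.

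EIF4G1, the large scaffold (chr3:184314495-184335358, plus strand), fell to nearly the same level in each mutant line. It was at 1629, 1734 and 1627 CPM with the empty vector, 1143, 1158 and 1255 with Splice del, 1109.7, 1144 and 1274 with C321fs and 1166, 1180.2 and 1249.9 with A333fs. Its log2 fold changes were -0.49 (SE 0.062), -0.50 (SE 0.062) and -0.47 (SE 0.062). EIF4G2, a scaffold without a cap-binding partner site, was at 784, 777 and 836 CPM in control cells, while the libraries of Splice del had 833, 852 and 839, those of C321fs 760.1, 873 and 869 and those of A333fs 1029, 1034 and 1060.4. It rose in A333fs cells (0.38, SE 0.058), where all libraries lay above the control range, and those of the other lines overlapped it. EIF4G3, another scaffold, passed in no line. EIF4A3, a helicase of the exon junction complex, and EIF4H, a helper of the EIF4A helicases, fell in all 3 lines, at -0.48, -0.34 and -0.25, and at -0.35, -0.18 and -0.22.

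EIF4E, the cap-binding protein, rose in A333fs cells, from 51.1, 57.7 and 56.5 CPM in control to 64.5, 77.8 and 66.1. It was at 0.12 in Splice del and 0.22 in C321fs cells without passing, and at 0.0088 in A333fs cells with the GC trend removed. EIF4E1B, a germ cell form of EIF4E at a very low level, was at 2.82, 3.30 and 2.12 CPM in the control libraries, 3.72, 3.19 and 4.21 in those of Splice del, 4.87, 4.82 and 4.54 in those of C321fs and 2.07, 1.91 and 1.35 in those of A333fs cells. All C321fs libraries lay above and all A333fs libraries below the control range. It rose in C321fs cells (0.78, SE 0.16, adjusted p = 0.0011 in edgeR's quasi-likelihood test) and fell in A333fs cells (-0.64, SE 0.19, adjusted p = 0.0081), the latter no longer passing with the GC trend removed (-0.43).

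EIF4EBP1, the inhibitor that mTOR removes from EIF4E (chr8:38030502-38060365, plus strand), fell in all 3 lines. It was at 233, 266 and 251 CPM with the empty vector, 170.4, 168 and 179.6 with Splice del, 238, 189.6 and 177 with C321fs and 166, 160.4 and 164 with A333fs. The first C321fs library overlapped control, and the log2 fold changes were -0.53 (SE 0.085), -0.31 (SE 0.084) and -0.62 (SE 0.085). They were -0.29, -0.12 and -0.27 with the GC trend removed, and the C321fs call was lost (adjusted p = 0.015 in edgeR's quasi-likelihood test). EIF4EBP2, a second inhibitor, passed in no line, at -0.10, -0.045 and -0.15. EIF4ENIF1, the transporter of EIF4E, fell in C321fs cells (-0.28) and did not pass in Splice del (-0.19) or A333fs cells (-0.20). EIF4EBP3 had at most 11 counts in a library and was not tested.

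Of 12 tested subunits of EIF3, the largest initiation factor, EIF3B, EIF3D, EIF3F, EIF3G, EIF3I and EIF3K fell in all 3 mutant lines. EIF3I, part of the module near EIF3B (chr1:32222370-32231604, plus strand), was at 283, 300.0 and 266 CPM in control cells, while the libraries of Splice del had 184, 181 and 184, those of C321fs 189, 204 and 193 and those of A333fs 227, 222 and 221. Control was highest without overlap, and the log2 fold changes were -0.63 (SE 0.052), -0.54 (SE 0.052) and -0.34 (SE 0.052). EIF3G, another member of that module, fell from 213 ± 18.8 CPM (SD, n = 3) to 137 ± 6.06, 154 ± 17.6 and 147 ± 2.02, and EIF3B, the scaffold of the module, fell to log2 fold changes of -0.54, -0.40 and -0.40. EIF3K had -0.52, -0.41 and -0.36.

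The other 6 tested EIF3 subunits either rose or did not pass against control, but this depended on the fit. After removal of the GC trend EIF3J passed as lower in all 3 lines (-0.31, -0.17 and -0.16), EIF3A in Splice del and C321fs cells (-0.23 and -0.23) and EIF3L in Splice del cells (-0.20). EIF3M rose in C321fs (0.29) and A333fs cells (0.40), though 595 of its 1720 exon bases are shared with CCDC73 on the opposite strand, and with the GC trend removed it was at -0.012 and 0.046. EIF3H, at the highest level per kilobase of the complex in control cells (302 ± 8.61 CPM per kilobase, SD, n = 3), rose in A333fs cells (0.30, and 0.064 with the GC trend removed, not passing) and did not pass in Splice del (0.12) or C321fs cells (0.18). Without GC correction EIF3A, EIF3J and EIF3L passed in no line. EIF3E passed in none either, and its A333fs libraries were far apart, at 291, 464 and 271 CPM against 259, 311 and 324 in control. EIF3C and its duplicate EIF3CL, which share 6097 exon bases, had at most 2 counts in any library, so the scaffold subunit was not measured.

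**Figure D4:**
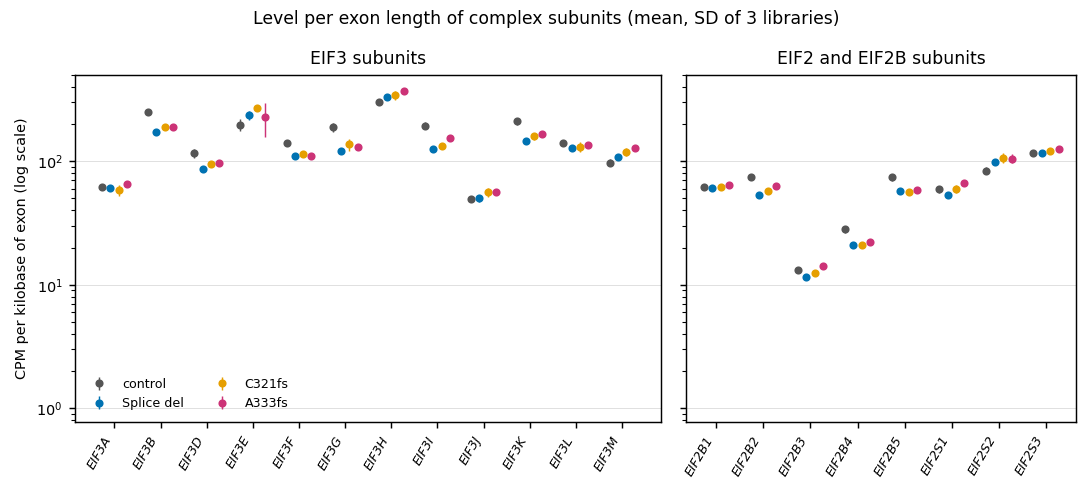
Level per kilobase of exon (CPM per kilobase, log scale, y axis) of the 12 tested EIF3 subunits and of the EIF2 and EIF2B subunits (x axis) in the 4 lines, as mean and SD of 3 libraries. EIF3B, EIF3G, EIF3I and EIF3K are highest in control cells, whereas EIF3H and EIF3M are lowest there.

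EIF2B is the exchange factor of EIF2, and its activity limits initiation under stress. Of its 5 subunits EIF2B2, EIF2B4 and EIF2B5 fell in all 3 lines. EIF2B2, a regulatory subunit (chr14:75002909-75009591, plus strand), was at 117, 116 and 111 CPM in the control libraries, 82.4, 80.6 and 81.6 in those of Splice del, 85.6, 91.1 and 89.7 in those of C321fs and 99.8, 93.6 and 98.3 in those of A333fs cells. Control libraries were the highest, and the log2 fold changes were -0.49 (SE 0.050), -0.37 (SE 0.050) and -0.24 (SE 0.050). EIF2B5, the catalytic subunit, fell to -0.36, -0.40 and -0.33 on the log2 scale, and EIF2B4, a regulatory subunit, to -0.41, -0.42 and -0.34. EIF2B4 in A333fs cells did not pass with the GC trend removed (-0.16). EIF2B1 passed in no line, and EIF2B3 fell narrowly in Splice del cells (-0.20, adjusted p = 0.0081 in edgeR's quasi-likelihood test).

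Of the EIF2 subunits, EIF2S2 rose in C321fs (0.34) and A333fs cells (0.32), and neither passed with the GC trend removed (0.15 and 0.077). EIF2S1, the subunit phosphorylated under stress, and EIF2S3 passed in no line against control. EIF2S1 was at -0.15, 0.013 and 0.16, and with the GC trend removed at -0.49, -0.34 and -0.17, each passing as lower. EIF2S3 was at -0.011, 0.052 and 0.10, and with the GC trend removed at -0.30, -0.24 and -0.22, each passing as lower. EIF2A, an alternative initiator tRNA carrier, rose in C321fs and A333fs cells (each 0.25, and -0.093 and -0.091 with the GC trend removed), and EIF2D, another, fell in Splice del (-0.23) and A333fs cells (-0.28).

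The factors of start codon selection and subunit joining moved in both directions. EIF1, which guards against wrong start codons (chr17:41688875-41691646, plus strand), was at 551, 565 and 514 CPM with the empty vector, 410.1, 423 and 443 with Splice del, 469.6, 468 and 449 with C321fs and 461, 434 and 448 with A333fs. It fell in each line, at -0.35 (SE 0.053), -0.23 (SE 0.053) and -0.28 (SE 0.053), with no mutant library in the control range. EIF5, the GTPase activator that ends scanning, was at 195, 218 and 221 CPM in control cells, and at 249, 251 and 236 with Splice del, 241, 273 and 263 with C321fs and 267, 291 and 267 with A333fs, all above control. It rose in all 3, at 0.21 (SE 0.063), 0.29 (SE 0.063) and 0.38 (SE 0.063), and with the GC trend removed was at -0.016, 0.12 and 0.14. EIF1AX rose in C321fs (0.31) and A333fs cells (0.38), without passing as higher once the GC trend was removed (-0.12 and 0.040), and EIF5B and EIF1B passed in no line.

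Tested directly against each other, the mutant lines differed in few of the 56 genes, where the control libraries enter only through the filter, the scaling and the estimate of the spread. Between A333fs and Splice del cells 10 genes were higher in A333fs (background 4.63%) and 1 was lower (7.29%). The 10 were EEF1B2 (0.56, SE 0.059), EEF1A1 (0.36), EIF4A2 (0.34), EIF2S1 (0.31), EIF4G2 (0.31), EIF2B3 (0.29), EIF3I (0.29), EIF3M (0.26), EIF2B2 (0.25) and EIF4A3 (0.23), on the log2 scale. They include EEF1A1, its exchange subunit EEF1B2 and 3 of the EIF2 and EIF2B genes. EIF4E1B was the lower one (-1.06, SE 0.18). For EIF2S1 the libraries were at 224, 227 and 214 CPM in Splice del and 278, 279.8 and 268 in A333fs cells, without overlap. All 11 kept their direction and passed with the GC trend removed, where 18 were higher (10.7%) and 1 lower (6.38%).

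Between A333fs and C321fs cells 4 genes were higher in A333fs (background 6.80%) and 2 lower (8.89%). EEF1B2 (0.43, SE 0.059, adjusted p = 6.1e-05 in edgeR's quasi-likelihood test), EIF4G2 (0.32), EIF4A2 (0.32) and EEF1A1 (0.29) were higher, and EEF1A2 (-0.51, SE 0.071) and EIF4E1B (-1.42, SE 0.17) were lower. Splice del and C321fs cells differed in EEF1A2 alone, lower in Splice del (-0.41, SE 0.071, background 2.14%). No gene was higher in Splice del by edgeR's quasi-likelihood test (background 4.18%), nor by DESeq2. At an unadjusted p below 0.05 in edgeR's test 0 were higher and 22 were lower. The share of all tested genes at that unadjusted level was not counted, so these 22 have no background beside them. With the GC trend removed 5 were higher and 5 lower in A333fs than in C321fs cells (11.3% and 9.53%), and 8 were lower in Splice del than in C321fs cells (6.39%) with 0 higher (6.11%).

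**Figure D5:**
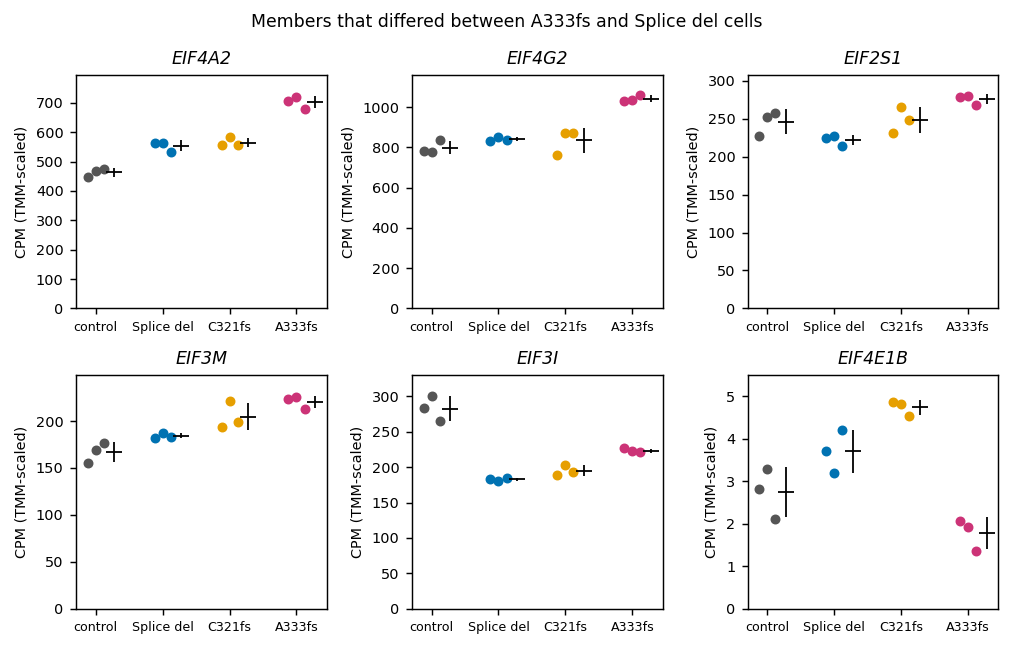
TMM-scaled CPM (y axis, from 0) in each library of the 4 lines (x axis), with the mean and SD of 3 libraries, for 6 genes that differed between A333fs and Splice del cells. EIF4A2, EIF4G2, EIF2S1, EIF3M and EIF3I are higher in every A333fs than in every Splice del library, and EIF4E1B is lower.

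The start site run did not mark a common course. Of the 11 tested genes with it, 1 rose and 6 fell with Splice del, 3 rose and 4 fell with C321fs, and 3 rose and 5 fell with A333fs. Of the 34 with a promoter entry and no run, 2 rose and 17 fell, 4 rose and 15 fell, and 8 rose and 16 fell. EEF2 fell and EIF4A2 rose in all 3 lines, and EIF4B, which assists the helicase, passed in none. EIF4B was at 932, 914 and 916 CPM in control cells, and at 858, 873 and 882 with Splice del, 851, 959.6 and 905 with C321fs and 924, 898 and 946 with A333fs.

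The upstream and neighbouring genes of translation, 55 of 56 of them tested, moved in both directions. With Splice del 10 rose and 18 fell (18.2% and 32.7%, background 18.7% and 22.4%), with C321fs 12 and 17 (21.8% and 30.9%, background 16.1% and 20.7%), and with A333fs 19 and 14 (34.5% and 25.5%, background 21.0% and 26.4%). In the mTOR and MNK branch to EIF4E 7, 7 and 6 of 14 genes fell and 2 rose in each line. DDIT4, an inhibitor of mTOR signaling, rose from 33.7 CPM to 57.7, 69.4 and 51.7, with log2 fold changes of 0.77, 1.04 and 0.62. RPTOR, the substrate adaptor of mTOR complex 1, fell by 0.69, 0.66 and 0.54 on the log2 scale. RPS6KB2, an S6 kinase, was at -0.77, -0.47 and -0.78, AKT1S1 at -0.58, -0.44 and -0.70, and TSC2 at -0.40, -0.61 and -0.62. All of these calls were kept with the GC trend removed. The named genes do not all act on mTOR signaling in the same direction, and its activity was not measured.

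Of the enzymes that modify the factors, 5 of 8 hypusine and diphthamide genes fell in each line, and 1 rose in A333fs cells. Of all tested genes 22.4%, 20.7% and 26.4% fell in Splice del, C321fs and A333fs cells, and 18.7%, 16.1% and 21.0% rose. DOHH, which completes the hypusine of EIF5A, was at -0.71, -0.49 and -0.66 on the log2 scale. DPH1 and DPH2, which start the diphthamide of EEF2, were at -0.50, -0.44 and -0.60, and at -0.59, -0.55 and -0.50. Of 9 mitochondrial translation factors 3 rose and 2 fell with Splice del and likewise with C321fs, and 5 rose and 1 fell with A333fs. TUFM, the mitochondrial counterpart of EEF1A, fell by 0.66, 0.44 and 0.63, and MTIF3, a mitochondrial initiation factor, rose by 0.46, 0.40 and 0.48. Of the kinases that phosphorylate EIF2, EIF2AK3 rose in Splice del (0.64) and A333fs cells (0.45), EIF2AK4 rose in the same lines (0.29 and 0.37), EIF2AK2 rose in C321fs cells (0.47), and EIF2AK1 passed in none. With the GC trend removed the calls of EIF2AK3 in A333fs cells (log2 fold change 0.21) and of EIF2AK2 in C321fs cells (0.17) were not kept.

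Some calls were lost when 1 library was left out. In Splice del cells 5 of 31 calls, in C321fs 9 of 31 and in A333fs 11 of 39 were lost in at least 1 of the 12 fits that each left out 1 library. EEF1A1 in Splice del cells was lost without any 1 of the control or Splice del libraries (highest adjusted p = 0.036 in edgeR's quasi-likelihood test). EEF1B2 in C321fs cells passed only without control replicate 3 (highest 0.062), and in A333fs cells it was lost without control replicate 2 or 3 or A333fs replicate 1 (highest 0.021). EIF5 in Splice del cells passed in 3 of the 12 fits (highest 0.058) and was lost without any 1 of the control or Splice del libraries, without C321fs replicate 2 and without A333fs replicate 1 or 3. EIF4E1B in A333fs cells passed in 6 (highest 0.058) and was lost without control replicate 1 or 2, Splice del replicate 1, C321fs replicate 2 or A333fs replicate 2 or 3. EIF4H in C321fs cells passed in 3 fits (highest 0.034), EIF2B3 in Splice del cells in 2 (highest 0.032), EIF1AD in A333fs cells in 3 (highest 0.062) and EIF4E3 in A333fs cells in 4 (highest 0.048). EIF4EBP1 in C321fs cells was lost without control replicate 2 or 3 or C321fs replicate 2 or 3 (highest 0.036), EIF5A2 in A333fs cells without control replicate 1 or 2 or A333fs replicate 1 or 2 (highest 0.028), EEF2K in C321fs cells without control replicate 1 or 2 or C321fs replicate 1 (highest 0.02), and EEF2KMT in C321fs cells was lost in 10 fits (highest 0.051). Between A333fs and Splice del cells 5 of 11 calls were lost in at least 1 fit. EIF3M, EIF2B2 and EIF4A3 passed in 7 of the 12 fits and were lost without any 1 of the Splice del libraries or A333fs replicate 1 or 3. EIF2B3 passed in 9 and EIF2S1 in 11, the latter lost without Splice del replicate 3. EEF1A1 between A333fs and C321fs cells was lost without A333fs replicate 1 or 3. EEF2, EEF1G, EEF1D, EIF5A, EIF6, EIF4G1, EIF3I, EIF3B, EIF3G and EIF4A2 passed against control in all 12 fits.

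The remaining entries gave no level to compare. EEF1DP3, EIF1B-AS1, EIF2B5-AS1 and EIF1AX-AS1 had at most 5, 7, 4 and 7 counts in a library, EEF1E1-BLOC1S5 and EIF3IP1 had 0, and no level is given for EIF1AY. EIF3J-AS1 was the only tested antisense gene, at 0.21, 0.15 and 0.17 without passing.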

How the data were processed

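RNA-seq libraries of the 4 T47D lines were prepared with the NEBNext Ultra II kit and sequenced as paired ends. The authors used Trimmomatic for trimming, hg38 for alignment and featureCounts 1.6.4 for counting fragments. The deposited values are raw counts per gene, not normalized, with replicates not pooled. The counting was unstranded and left out fragments that overlap more than 1 gene, so overlapping genes lose counts. The aligner is not settled, since the file header and the submitters' processing notes name different tools. ChIP-seq samples were not analysed here.

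Genes were kept with filterByExpr (14789 of 26485), scaled by TMM and fitted with edgeR 4.0.16 in R 4.3.3, with 1 coefficient per line over the 12 libraries, quasi-likelihood tests and Benjamini-Hochberg adjustment. A gene passed at an adjusted p below 0.01, and the fold limit was 1.5. The common dispersion was 0.00453. The script was tested on simulated data. Alternatives were other scalings, filters, DESeq2 1.42.0, a replicate block, a loess of GC and length (span 0.3) removed per library, and leaving out each library. Exon GC content was read from hg38 at the exons in the count table.

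The genes and lists were chosen with earlier results of these data known. Values were described for members past the fold limit in any comparison, for the 3 members with the smallest p over all lines and the most abundant one of each role, and for 13 set names. EEF1B2, EIF4G2, EIF2S1, EIF2S2, EIF2A, EIF3M, EIF3E, EIF4B and MTIF3 were added after their values were seen. Further members outside that rule were also given with values, among them EIF4H, EIF2D, EIF2B3, EIF3A, EIF3J and EIF3L. Same-numbered libraries did not deviate together (mean correlation of residuals -0.0092 over 18 pairs), so numbers were not taken as pairs.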

Additional observations from a re-analysis of the deposited data

Results flagged for a closer look

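Differences between mutant lines, tested directly with edgeR's quasi-likelihood test, called for a closer look. EEF1A2 was lower in Splice del than in C321fs cells (-0.41 on the log2 scale) and lower in A333fs than in C321fs cells (-0.51). EEF1B2 was higher in A333fs than in C321fs (0.43) and Splice del cells (0.56), as were EEF1A1 (0.29 and 0.36), EIF4A2 (0.32 and 0.34) and EIF4G2 (0.32 and 0.31). EIF4E1B was lower in A333fs than in both (-1.42 and -1.06). Against Splice del alone, A333fs cells were higher in EIF2S1 (0.31), EIF2B3 (0.29), EIF3I (0.29), EIF3M (0.26), EIF2B2 (0.25) and EIF4A3 (0.23). The comparisons share the A333fs libraries.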

How the results depend on the processing

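The number that rose in Splice del cells, 3 in the reported fit, was 6 with the libraries of the comparison alone, 8 at an adjusted p of 0.05, 10 with upper-quartile scaling, 16 with library totals, 1 with the GC and length trend removed, with or without a replicate block, and 2 to 5 when 1 library was left out. In C321fs cells the number that rose, 8, was 13 at 0.05, 13 with upper-quartile scaling, 19 with totals, 2 with the trend removed, and 5 to 10 without 1 library; the number that fell, 23, was 13 with totals. In A333fs cells the number that rose, 13, was 20, 21 and 2 with upper-quartile scaling, totals and the trend removed. The number lower in Splice del than in C321fs cells, 1, was 2 with upper-quartile scaling, 3 with totals, with no filter and with DESeq2, 5 at 0.05, 8 with the trend removed, 7 with the replicate block added to that, and 1 to 4 without 1 library. The number lower in A333fs than in C321fs cells, 2, was 4 with totals, no filter and DESeq2, 5 at 0.05, 5 with the trend removed, 6 with the block added, and 2 to 4 without 1 library. The number higher in A333fs than in Splice del cells, 10, was 18 with the trend removed, 19 with the block added, and 5 to 11 without 1 library. Totals turned EIF2S3 in Splice del cells to 0.17. The share of all tested genes was counted only for the reported fit and the fit with the trend removed. The cause of these changes was not tested.

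With the GC and length trend removed, the direction changed in Splice del cells for EIF1AX (-0.24), EIF4A2 (-0.027), EIF4E (-0.20) and EIF5 (-0.016). In C321fs cells it changed for EIF1AX (-0.12), EIF2S3 (-0.24) and EIF4A2 (-0.0092), and in A333fs cells for EEF1A2 (0.0033), EEF1E1 (-0.0073) and EIF2S3 (-0.22). With the replicate block as well these were -0.24, -0.027, -0.20 and -0.015, then -0.13, -0.24 and -0.0092, then 0.0032, -0.0094 and -0.22. The list is not complete. Further genes changed sign with the trend removed, among them EIF3M and EIF2A in C321fs cells and EIF2A and EEF1A1 in A333fs cells. The summed share without EEF1A1 and EEF2 was 89.3% of control in Splice del and 95.3% in A333fs cells, and the sum per kilobase 75.4, 82.7 and 84.5%. The replicate block alone left 4 risen and 26 fallen for Splice del, 9 and 20 for C321fs, and 12 and 24 for A333fs. Of the calls of named genes it ended those of EEF1A1 in Splice del (adjusted p = 0.011), EEF2KMT in C321fs (0.015) and EIF4E1B in A333fs cells (0.010) in edgeR's quasi-likelihood test. At these depths counting error was small for most members, but EIF4E1B, EIF5A2 and EIF5AL1 were below 10 CPM.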
